A study of Mus musculus with 9 samples.

Results

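Read counts of 10 transcription factors that mark pluripotent or trophoblast cells were examined in mouse extra-embryonic endoderm stem (XEN) cells as a measure of lineage purity. The genes were chosen by symbol for their known roles, and all 10 were found among the 55401 genes of the count table. They are the core pluripotency factors Pou5f1, Nanog and Sox2, the further pluripotency factors Zfp42, Esrrb and Klf4, and the trophoblast factors Cdx2, Eomes, Elf5 and Tfap2c. All libraries were RNA-seq of a XEN line from a cross of Mus musculus molossinus with Mus musculus, grown in serum medium. The labels give the sex as female for the WT_EV, DeltXp and DeltXp_DeltXm libraries and no sex for WT_clone. The groups were wild type WT_EV (n = 3), DeltXp with genotype "Paternal Xist deletion" (n = 2), DeltXp_DeltXm with genotype "Homozygous Xist deletion" (n = 2), and wild-type clones WT_clone (n = 2). According to the series' design the deletion lies upstream of Xist. Its ends, the meaning of EV, and the meaning of the prefixes D1 of both DeltXp titles and D3 of both DeltXp_DeltXm titles are not given. Should D1 and D3 each stand for 1 line, an effect of the line and an effect of the genotype cannot be told apart. Whether the WT_EV libraries were separate cultures is not stated, and the tests then see only the differences among these libraries, which may be technical.

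Early mouse embryos set apart an epiblast, a trophoblast and a primitive endoderm. Pou5f1, Sox2 and Nanog form the network that keeps epiblast cells and embryonic stem cells pluripotent, while Cdx2, Eomes, Elf5 and Tfap2c keep trophoblast stem cells in their state. XEN cells come from the primitive endoderm, which is specified by GATA and SOX factors and in which the pluripotency and trophoblast programmes are shut down.

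The 7 WT_EV and deletion libraries held 14352719 to 29335803 counts. With a count of 0, such a library allows a level of up to 0.102 to 0.209 CPM (the count per 1000000 counts of the library), taking 3 counts as the limit. These limits and the 95% Poisson intervals cover counting error only. The WT_EV libraries stood apart from the 4 deletion libraries in RNA makeup. Rn7sk, a small nuclear RNA without a poly(A) tail, had 157188 to 255029 counts in WT_EV and 2 to 7 in the deletions. Replication-dependent histone genes took 0.984% to 2.47% of WT_EV counts and 0.00129% to 0.00686% of the others. Protein-coding genes took 84.6% to 89.0% and 94.4% to 95.9%. These shares split the libraries exactly as WT_EV and deletion do, so in every comparison with WT_EV library makeup and genotype cannot be told apart.

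Promoter sequence was matched from RefSeq (GRCm38.p6) for 9 of the 10 genes, all but Tfap2c. The 250 bases before the start were searched for the motif CG, which reads the same on both strands and whose matches do not overlap. That start can differ from the start of the gene model given below. The Sox2 window, for example, ends at 34649994, whereas its gene model starts at 34650405. Of 16512 protein-coding genes with such a window, 93.0% held at least 1 match, and the median was 10. The windows of 4 genes are shown because they span the contrast between the single abundant factor and 3 scarce ones, with CG in capitals, each read 5′ to 3′ toward the gene.
Klf4, chr4:55532476-55532725, minus strand: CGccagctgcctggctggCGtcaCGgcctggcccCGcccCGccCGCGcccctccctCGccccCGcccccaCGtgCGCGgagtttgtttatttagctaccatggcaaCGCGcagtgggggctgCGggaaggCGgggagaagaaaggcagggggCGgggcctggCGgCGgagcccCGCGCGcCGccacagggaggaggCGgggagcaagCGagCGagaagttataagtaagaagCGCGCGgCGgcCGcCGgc
Sox2, chr3:34649745-34649994, plus strand: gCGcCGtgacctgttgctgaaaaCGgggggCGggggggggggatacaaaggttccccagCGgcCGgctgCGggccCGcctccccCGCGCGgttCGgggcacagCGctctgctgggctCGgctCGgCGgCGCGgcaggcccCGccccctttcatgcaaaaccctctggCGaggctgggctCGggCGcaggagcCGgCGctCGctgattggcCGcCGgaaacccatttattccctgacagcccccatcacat
Nanog, chr6:122707239-122707488, plus strand: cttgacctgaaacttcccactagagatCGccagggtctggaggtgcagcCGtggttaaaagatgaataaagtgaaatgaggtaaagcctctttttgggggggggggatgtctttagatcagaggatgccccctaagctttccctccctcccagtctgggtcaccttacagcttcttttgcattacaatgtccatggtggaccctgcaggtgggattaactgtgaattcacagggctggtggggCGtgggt
Eomes, chr9:118477939-118478188, plus strand: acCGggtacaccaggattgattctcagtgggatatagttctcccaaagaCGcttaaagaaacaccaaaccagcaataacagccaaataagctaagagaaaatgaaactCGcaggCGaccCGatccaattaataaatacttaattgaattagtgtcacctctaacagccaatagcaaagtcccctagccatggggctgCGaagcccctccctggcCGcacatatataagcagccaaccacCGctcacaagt

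Klf4 had 32 matches, a number reached by 5.68% of these promoters, and Sox2 had 27, reached by 10.7%. Eomes and Pou5f1 had 8 each, Cdx2 had 13, Zfp42 had 9 and Esrrb had 6. Nanog had 3 and Elf5 had 2, a number that 84.7% of promoters reach. As a description over all these genes, 18.5% of the 6306 with at least 15 matches had a mean under 1 CPM, against 41.1% of the 4858 with 5 to 14 and 89.0% of the 5348 with up to 4. Sox2 and Klf4 thus shared a dense class of promoter and lay at opposite ends of the measured levels.

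One factor, Klf4, accounted for nearly all counts of the group. The other 9 summed to 34, 39 and 12 counts in WT_EV replicates 1, 2 and 3. They summed to 20 and 49 in DeltXp replicates 1 and 2, and to 37 and 46 in DeltXp_DeltXm replicates 1 and 2. As a summed level this was 0.814 to 2.23 CPM per library. For scale, 22 markers of extra-embryonic endoderm summed to 40940 to 55740 CPM in WT_EV, 14190 to 29890 CPM in DeltXp and 22850 to 25290 CPM in DeltXp_DeltXm. In that endoderm list 14 of 22 genes were above 10 CPM in every library, among them Gata4, Gata6, Sox7, Sox17, Lama1, Lamb1, Lamc1 and Sparc. Col4a1, a basement membrane collagen of that list, had 0 counts in DeltXp replicate 1 and 849 to 14370 CPM in the other libraries, which moves the sums. Col4a2 had 4 counts in that library. Amn, Afp and Thbd, further markers of that lineage, stayed under 1 CPM in every library, and Ttr lay between 0.547 and 8.02 CPM. Gata4 was at 827 ± 70.9 CPM in WT_EV (SD, n = 3), 112 ± 38.9 CPM in DeltXp and 95.6 ± 17.6 CPM in DeltXp_DeltXm (SD, n = 2 each). Of the 20 endoderm markers tested against WT_EV, 7 fell and 2 rose in DeltXp, and 8 fell and 3 rose in DeltXp_DeltXm. Over all tested genes 40.1% fell and 32.2% rose in DeltXp, and 36% fell and 30.9% rose in DeltXp_DeltXm. With GC and length offsets 3 fell and 9 rose in DeltXp, and 2 fell and 8 rose in DeltXp_DeltXm. The balance of calls in this list thus turned with that setting, in which 49.4% and 41% of all tested genes were called. The log2 changes of Gata4 itself in DeltXp and DeltXp_DeltXm were -2.42 and -2.79 (adjusted p = 3.17e-05 and 2.45e-05, edgeR). With offsets its log2 changes were 0.90 and 0.25 (adjusted p = 0.0120 and 0.440, edgeR).

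**Figure D1:**
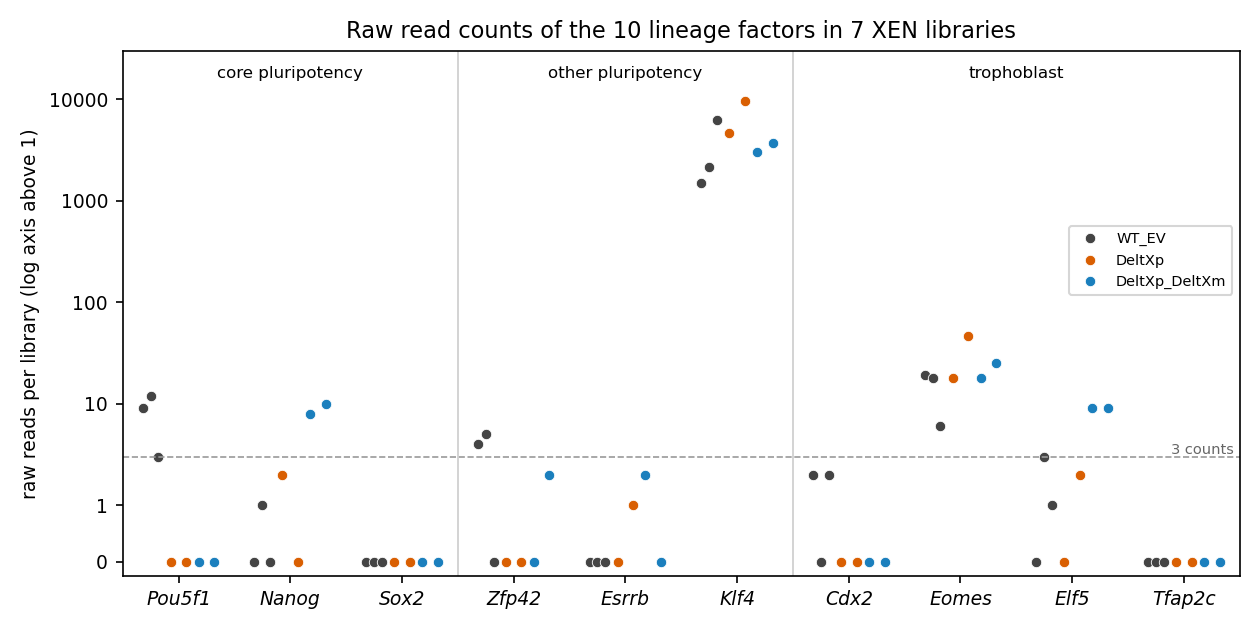
Raw reads (vertical axis, logarithmic above 1) of each of the 10 genes (horizontal axis) in 7 libraries, 1 point per library, coloured by group; the dashed line marks 3 counts. Klf4 lies at 1487 to 9704 reads, Eomes at 6 to 46, and the other genes at 12 or fewer.

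Among the core factors, Pou5f1, which encodes the POU factor OCT4, lies at chr17:35506018-35510772 on the plus strand. Its counts were 9, 12 and 3 in WT_EV replicates 1, 2 and 3 and 0 in all 4 deletion libraries. The WT_EV level was 0.468 ± 0.224 CPM (SD, n = 3), and 0 counts over a deletion group allow 0.0556 CPM in DeltXp and 0.0567 CPM in DeltXp_DeltXm. The groups did not overlap, but the WT_EV library with 3 counts lay at the limit that a count of 0 allows. In bulk RNA, fewer cells of a type and less RNA per cell cannot be told apart.

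Nanog, a homeobox factor of the naive epiblast at chr6:122707489-122714633 (plus strand), had 0, 1 and 0 counts in WT_EV replicates 1, 2 and 3. It had 2 and 0 counts in DeltXp replicates 1 and 2, and 8 and 10 in DeltXp_DeltXm replicates 1 and 2. Both homozygous deletion libraries thus lay above the other 5, at 0.339 ± 0.0376 CPM (SD, n = 2). Such non-overlap, in either direction, was found in 77.5% of all tested genes against WT_EV and in 50.5% against DeltXp. Sox2, the SOX partner of OCT4 at chr3:34650405-34652461 (plus strand), had 0 counts in all 7 libraries, which over their 156315114 counts allows up to 0.0192 CPM. The 2 WT_clone libraries, whose table was held only in part, had 0 and 1 Sox2 counts. Pou5f1 overlaps the antisense gene Gm19553 (0 counts) and Sox2 lies within Sox2ot (2 counts in all); the strand setting of the counting is not given. Pou5f1 and Nanog both have processed pseudogenes in the mouse genome, and how reads that map to several places were handled is not given, so their small counts are uncertain.

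Of the further pluripotency factors, Zfp42 (REX1, a zinc-finger marker of naive cells, chr8:43295063-43306980, minus strand) had 4, 5 and 0 counts in WT_EV replicates 1, 2 and 3. It had 0 and 0 in DeltXp and 0 and 2 in DeltXp_DeltXm replicates 1 and 2, so the 3 groups shared the value 0. Esrrb, an orphan nuclear receptor of the naive network (chr12:86361117-86521628, plus strand), had 0 counts in every WT_EV library, 0 and 1 in DeltXp and 2 and 0 in DeltXp_DeltXm. Its 3 counts in all equal the limit that a count of 0 allows.

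Klf4 was the exception. This Krüppel-like zinc-finger factor, a reprogramming factor that is also made in many epithelia, lies at chr4:55527143-55532466 on the minus strand. Its counts were 1487, 2165 and 6202 in WT_EV replicates 1, 2 and 3. In DeltXp they were 4591 and 9704, and in DeltXp_DeltXm 3006 and 3704, in replicates 1 and 2. The corresponding levels were 97.3, 109 and 432 CPM, 187 and 331 CPM, and 117.5 and 135.5 CPM. In CPM, WT_EV replicate 3 was the highest of all 7 libraries and WT_EV replicate 1 the lowest, so the wild-type range spanned both deletion groups. Per kilobase of gene model, Klf4 was above 93.7% to 99.0% of protein-coding genes in each library.

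Of the trophoblast factors, Eomes was the only one with a count in every library. This T-box factor of trophoblast stem cells and, later, of mesendoderm lies at chr9:118478212-118486132 on the plus strand. It had 19, 18 and 6 counts in WT_EV replicates 1, 2 and 3, 18 and 46 in DeltXp and 18 and 25 in DeltXp_DeltXm replicates 1 and 2. As levels these were 1.24, 0.908 and 0.418 CPM, 0.732 and 1.57 CPM, and 0.703 and 0.915 CPM. The 3 groups overlapped. Eomes overlaps the antisense gene Gm33460, which had 30 counts in all against 150 for Eomes.

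Elf5, an ETS factor that marks the trophoblast stem state (chr2:103411688-103450989, plus strand), had 0, 3 and 1 counts in WT_EV replicates 1, 2 and 3. In DeltXp it had 0 and 2 counts, and in both DeltXp_DeltXm libraries 9. Like Nanog, it was highest in both homozygous deletion libraries, at 0.340 ± 0.0159 CPM (SD, n = 2). Among all tested genes, 77.5% did not overlap between DeltXp_DeltXm and WT_EV, and 50.5% did not between the deletions. WT_clone replicates 1 and 2 had 3 and 5 Elf5 counts; over the genes that both tables share, that was 0.393 and 0.858 CPM, against 0 to 0.942 CPM in WT_EV and 1.38 and 1.45 CPM in DeltXp_DeltXm. Cdx2, the caudal-type homeobox factor of the trophectoderm (chr5:147300805-147307270, minus strand), had 2, 0 and 2 counts in WT_EV and 0 in all deletion libraries. Tfap2c (AP-2 gamma, chr2:172549593-172558622, plus strand) had 0 counts in all 7 libraries and 0 and 1 in WT_clone.

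Ordered by level per kilobase pooled over the 7 libraries, Klf4 (64.8 CPM per kb, 95% interval 64.0 to 65.5) stood first and Eomes (0.231, 0.196 to 0.271) next. Pou5f1 (0.0683, 0.0438 to 0.102), Nanog (0.0599, 0.0371 to 0.0916), Zfp42 (0.0374, 0.0187 to 0.0669) and Elf5 (0.0261, 0.0167 to 0.0389) followed, and each one's interval overlapped that of its neighbour. Cdx2 (0.0113, 0.00308 to 0.0290) overlapped Elf5, and Esrrb (0.00317, 0.000655 to 0.00928) overlapped Cdx2. Sox2 and Tfap2c had no counts. These intervals carry counting error and not the spread between libraries, and the order below Eomes depends on the pooling. Pou5f1 was at 0.208 CPM per kb in WT_EV and 0 in the deletions, whereas Nanog was at 0.00750 in WT_EV and 0.151 in DeltXp_DeltXm. By the median of the 7 libraries, Nanog (0.0225) and Elf5 (0.0119) lay above Pou5f1 (0). Summed without Klf4, the 9 factors came to 1.97 and 2.23 CPM in WT_EV replicates 2 and 1, to 0.836 CPM in replicate 3, and to 0.814 to 1.68 CPM in the deletions.

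**Figure D2:**
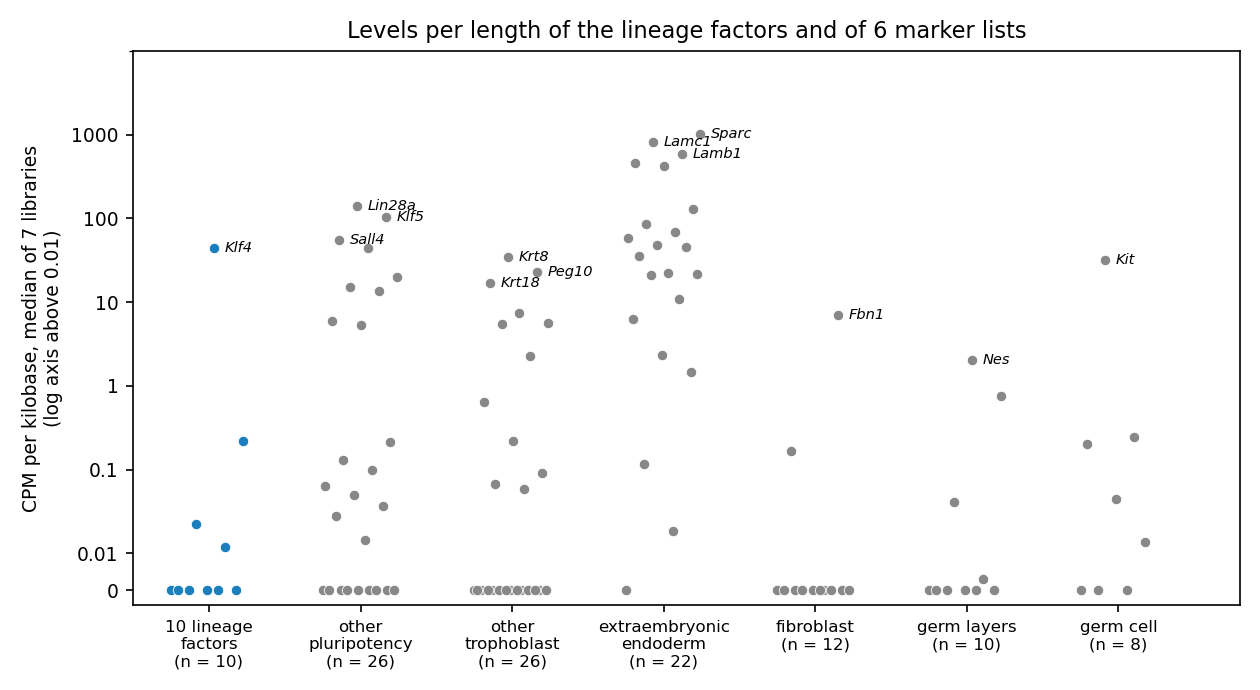
Median level over 7 libraries in CPM per kilobase (vertical axis, logarithmic above 0.01) of each gene, 1 point per gene, in the 10 lineage factors and 6 marker lists. Klf4 is at 44.4 among factors that otherwise lie at 0.218 or lower, while most extra-embryonic endoderm genes lie above 10.

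The study asked what the deletion upstream of Xist does to gene expression in XEN cells. Of the 10 factors, 3 passed the filter on low counts (Klf4, Eomes and Pou5f1), and Pou5f1 passed only through WT_EV, where it was high, so that it had to differ and its call shows nothing further. Counts were tested with the edgeR quasi-likelihood test, with adjustment over all 15331 genes tested and a call at an adjusted p under 0.05. In DeltXp against WT_EV neither Klf4 nor Eomes was called, Pou5f1 was, and 72.3% of all tested genes were called, 32.2% higher and 40.1% lower. In DeltXp_DeltXm against WT_EV again Pou5f1 alone was called, against 66.8% of all tested genes (30.9% higher and 36% lower). In DeltXp_DeltXm against DeltXp none of the 3 was called and none had an unadjusted p under 0.05 in edgeR, against 0.444% of all tested genes called. DESeq2 also called none of them there, against 7.7% of all genes, though Klf4 had an unadjusted p under 0.05 (adjusted p = 0.174, DESeq2). The DeltXp and DeltXp_DeltXm comparisons with WT_EV share the WT_EV libraries, so they are not independent.

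As a description, Pou5f1 was at least 8.72-fold lower in DeltXp than in WT_EV and at least 8.56-fold lower in DeltXp_DeltXm. Both bounds set the summed 24 WT_EV counts against a floor of 3 counts over the deletion group. Its non-overlap was shared by 81.6% and 77.5% of all tested genes in the same 2 comparisons. The call was lost with offsets for GC content and length (adjusted p = 0.210 and 0.165, edgeR), a fit in which 49.4% and 41% of all genes were called. Without WT_EV replicate 1, or without replicate 2, Pou5f1 no longer passed the filter and was not tested.

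For Klf4 the log2 change was 0.74 (SE 0.60, 95% interval -0.94 to 2.42, adjusted p = 0.294, edgeR) in DeltXp against WT_EV. It was -0.43 (SE 0.62, interval -2.15 to 1.29, adjusted p = 0.557, edgeR) in DeltXp_DeltXm against WT_EV. Between the deletions it was -1.17 (SE 0.68, interval -3.06 to 0.71, adjusted p = 0.362, edgeR). None of these differences passed the test, and the intervals allow a change in either direction. In CPM the WT_EV range covered both deletion groups, whereas both DeltXp_DeltXm libraries lay below both DeltXp libraries, a non-overlap shared by 50.5% of all tested genes in that comparison. A single library carried much of that spread: without WT_EV replicate 3 the DeltXp change was 1.78 (adjusted p = 3.61e-04, edgeR) and the DeltXp_DeltXm change turned to 0.61 (adjusted p = 0.0742, edgeR). With GC and length offsets the changes were 3.29 (adjusted p = 0.00418, edgeR) and 1.67 (adjusted p = 0.0699, edgeR). Klf5, a related factor of the further pluripotency list, was also highest in WT_EV replicate 3, at 868 CPM against 275 and 294 CPM in replicates 1 and 2, and the part this library's state plays in Klf4 was not tested.

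Eomes changed by 0.88 (SE 0.61, adjusted p = 0.209, edgeR) in DeltXp and by 0.24 (SE 0.62, adjusted p = 0.749, edgeR) in DeltXp_DeltXm, both against WT_EV, and neither passed. Its difference between the deletions was -0.65 (SE 0.66, adjusted p = 0.608, edgeR). With GC and length offsets the first 2 values were 3.05 (adjusted p = 0.00214, edgeR) and 2.05 (adjusted p = 0.0182, edgeR). The median GC content of the 10 factors was 53.3%, against 48.7% for protein-coding genes.

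**Figure D3:**
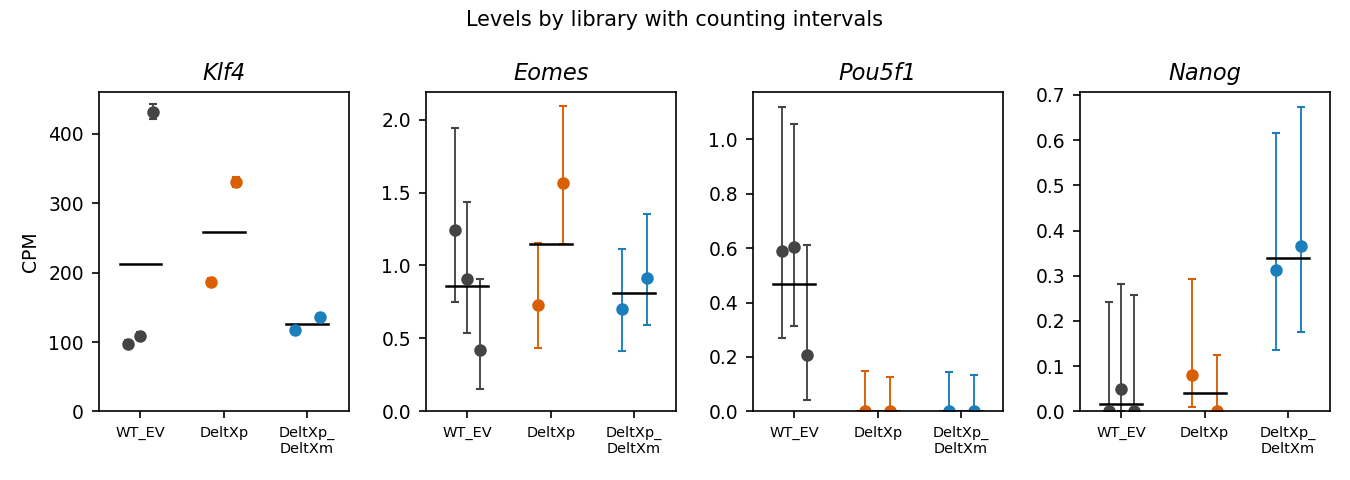
Level in CPM (vertical axes, each on its own scale from 0) of Klf4, Eomes, Pou5f1 and Nanog by group, 1 point per library with its 95% Poisson interval, and a bar at the group mean. Klf4 in WT_EV spans 97.3 to 432 CPM, Pou5f1 is at 0 in the 4 deletion libraries, and Nanog is highest in the 2 DeltXp_DeltXm libraries.

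Factors that the filter removed could be tested only without it, where 27732 genes entered and 43.1% were called in DeltXp and 39.5% in DeltXp_DeltXm against WT_EV. Nanog then had a log2 change of 4.04 (SE 1.36, adjusted p = 0.00932, edgeR) in DeltXp_DeltXm. It rests on 18 counts against 1, a ratio of levels of 16.8 with a counting interval of 2.66 to 701. Elf5 in the same comparison rests on 18 counts against 4, a ratio of 4.21 (interval 1.39 to 17.1), and did not pass (adjusted p = 0.08375, edgeR). Zfp42, at least 3.27-fold lower in DeltXp, did not pass either (adjusted p = 0.0553, edgeR). Cdx2 and Esrrb passed in neither comparison, and Sox2 and Tfap2c had no count to test. Between the deletions none of the 8 passed in this fit, where 5.18% of all genes did; Nanog and Elf5 had 18 counts against 2 each, with adjusted p of 0.271 and 0.232 (edgeR).

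In the part of the WT_clone table that was held there were 3 factors (Sox2, Elf5 and Tfap2c). None passed the filter, under which 30.6% of 3302 shared genes were called in WT_clone against WT_EV. Without the filter none of the 3 was called in WT_clone against WT_EV, where 18.5% of 6271 shared genes were, and none had an unadjusted p under 0.05. Elf5 had a log2 change of 0.75 (SE 1.28, adjusted p = 0.737, edgeR). In DeltXp and DeltXp_DeltXm against WT_clone none of the 3 was called either, against 22.2% and 15% of shared genes.

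The wider pluripotency programme was read from 26 further genes. Of these, 11 stayed under 1 CPM in every library, among them Fgf4, Tdgf1 and Prdm14, and Dppa3, Utf1, Nr0b1, Gdf3 and Fgf5 had no count at all. Another 9 were above 10 CPM everywhere, led by Klf5, Lin28a, Sall4, Dnmt3b and L1td1. The list summed to 2567 to 2886 CPM in WT_EV, 1264 to 1474 CPM in DeltXp and 1905 to 2084 CPM in DeltXp_DeltXm. In DeltXp against WT_EV 13 of them could be tested: 8 fell, 3 rose and 2 missed the threshold, and their median log2 change was -0.98 (-0.35 over all genes). Over all genes tested, 40.1% fell and 32.2% rose. In DeltXp_DeltXm 5 fell, 3 rose and 5 missed it, and the median was -0.82 (-0.15 over all genes), where 36% of all genes fell and 30.9% rose. With GC and length offsets 4 fell, 2 rose and 7 missed it in DeltXp, and 2, 3 and 8 did so in DeltXp_DeltXm, against 49.4% and 41% of all genes called. Dppa2, Dppa5a and Dnmt3l passed the filter only through WT_EV, where they were high, so that they had to fall. Their falls, counted in both comparisons without offsets, show nothing further, and the medians include them. Between the deletions none of the 13 passed in edgeR, 5 had an unadjusted p under 0.05, and DESeq2 called 2. Over all genes there, 3196 of 15331 had an unadjusted p under 0.05 in edgeR, and DESeq2 called 7.7%.

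Dnmt3b, a de novo DNA methyltransferase, fell from 553 ± 289 CPM in WT_EV (SD, n = 3) to 24.8 ± 8.90 CPM in DeltXp and 74.8 ± 37.8 CPM in DeltXp_DeltXm (SD, n = 2 each). Its log2 changes were -4.01 (SE 0.61, adjusted p = 3.17e-04) and -2.56 (SE 0.56, adjusted p = 0.00318, both edgeR). With offsets they were -2.27 (adjusted p = 0.00465) and -1.17 (adjusted p = 0.06815, both edgeR), so the second call was lost. Over the shared genes, Dnmt3b changed by -1.64 in WT_clone against WT_EV (adjusted p = 0.0676, edgeR), which did not pass. Against WT_clone its change passed in DeltXp (-2.74, adjusted p = 0.0104, edgeR) but not in DeltXp_DeltXm (-1.34, adjusted p = 0.16, edgeR). Lin28a, an RNA-binding protein that blocks let-7 processing, fell in DeltXp (log2 -0.98, SE 0.22, adjusted p = 0.00244, edgeR) but not with offsets (-0.30, adjusted p = 0.213). In DeltXp_DeltXm its change was -0.03 (adjusted p = 0.907, edgeR).

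Tfcp2l1, a naive-state factor, rose from 40.6 ± 17.0 CPM in WT_EV (SD, n = 3) to 190 ± 69.4 CPM in DeltXp_DeltXm (SD, n = 2). Its log2 difference there was 2.56 (SE 0.44, adjusted p = 6.98e-04, edgeR), or 1.72 with offsets (adjusted p = 0.0122, edgeR). In DeltXp it rose by 1.26 (adjusted p = 0.0249, edgeR), a call that offsets removed (0.35, adjusted p = 0.529). Over the shared genes, Tfcp2l1 also rose in WT_clone against WT_EV, by 2.85 (adjusted p = 0.0105, edgeR). Against WT_clone its log2 changes were -1.96 in DeltXp and -0.69 in DeltXp_DeltXm (adjusted p = 0.0533 and 0.505, edgeR), and neither passed. Tet1, an enzyme that oxidises methylcytosine, rose by 1.34 and 1.18 on the log2 scale in DeltXp and DeltXp_DeltXm (adjusted p = 0.00133 and 0.00323, edgeR), while with offsets the values turned to -0.61 and -0.38 and did not pass. Sall4, a zinc-finger factor also made in extra-embryonic endoderm, fell, with log2 changes of -1.02 and -0.82 (adjusted p = 0.00968 and 0.0285, edgeR), and with offsets rose, at 0.99 and 0.81 (adjusted p = 0.0150 and 0.0418). The direction of Tet1 and Sall4 therefore depended on the offsets. Over the shared genes, Sall4 also fell in WT_clone against WT_EV, with a log2 change of -0.95 (adjusted p = 0.0343, edgeR). Against WT_clone its changes were -0.45 in DeltXp and -0.28 in DeltXp_DeltXm (adjusted p = 0.2855 and 0.552, edgeR), and neither passed.

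The wider trophoblast programme was read from 26 further genes. Here 15 stayed under 1 CPM in every library, among them Gata2, Ascl2 and Gcm1. Of these, 8 had no count at all, including Hand1 and the placental genes Prl3d1, Prl3b1 and Tpbpa. Those above 10 CPM everywhere were Peg10, Krt8, Krt18, Ets2 and Sox21. The list summed to 1038 to 1347 CPM in WT_EV, 228 to 458.5 CPM in DeltXp and 789 to 1386 CPM in DeltXp_DeltXm. Tests were possible for 11 genes, and in DeltXp against WT_EV 5 fell, 3 rose and 3 missed the threshold, their median log2 change being -1.64 (-0.35 over all genes). These 8 of 11 calls stand beside 72.3% called over all genes, a share near theirs. In DeltXp_DeltXm 4 fell, 3 rose and 4 missed it, and the median was 0.01 (-0.15 over all genes), beside 66.8% called over all genes. With offsets 2 fell, 4 rose and 5 missed it in DeltXp, where the median turned to 0.60, and 1, 6 and 4 did so in DeltXp_DeltXm. Over all genes that fit called 49.4% and 41%. Gata3 and Tfap2a passed the filter only through deletion libraries, where they were high, so that they had to rise. Their rises, counted in both comparisons without offsets, show nothing further, and the medians include them. Between the deletions none of the 11 passed in edgeR, 3 had an unadjusted p under 0.05, and DESeq2 called 1. For all genes the unadjusted p was under 0.05 in 3196 of 15331 (edgeR), and DESeq2 called 7.7%.

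Krt8 and Krt18, keratins of simple epithelia that trophoblast and endoderm both make, fell in DeltXp, with log2 changes of -3.42 and -3.94 (adjusted p = 2.075e-05 and 1.49e-05, edgeR). With offsets their changes were 0.20 and -0.34 and did not pass. In DeltXp_DeltXm they also fell, at -2.68 and -4.03 (adjusted p = 1.02e-04 and 2.175e-05, edgeR), and offsets again removed both calls, at 0.54 and -0.93. Tead4, the TEA-domain factor upstream of Cdx2 in trophectoderm, fell by 2.99 in DeltXp (adjusted p = 2.95e-05, edgeR), a value that turned to 0.60 with offsets. In DeltXp_DeltXm it fell by 1.89 (adjusted p = 4.77e-04, edgeR) and rose by 1.42 with offsets (adjusted p = 0.00212).

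Peg10, an imprinted retrotransposon-derived gene needed for the placenta, had positive log2 changes with and without offsets. Its levels were 121, 124 and 150.1 CPM in WT_EV replicates 1, 2 and 3, 134 and 276 CPM in DeltXp and 612 and 1227 CPM in DeltXp_DeltXm replicates 1 and 2. The DeltXp_DeltXm libraries lay above all others, with a log2 change of 3.13 against WT_EV (SE 0.35, adjusted p = 4.65e-05, edgeR) and 2.42 with offsets (adjusted p = 7.90e-04). In DeltXp it rose by 1.10 (SE 0.34, adjusted p = 0.0148, edgeR), a call lost with offsets (0.39, adjusted p = 0.358). Between the deletions the difference was 2.03 (SE 0.39, adjusted p = 0.0590, edgeR), short of the threshold. Ets2, an ETS factor, did not pass in either comparison with WT_EV (0.66 and 0.37, adjusted p = 0.0534 and 0.262, edgeR), but rose in both with offsets (2.06 and 1.48, adjusted p = 4.75e-04 and 0.00323, edgeR).

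**Figure D4:**
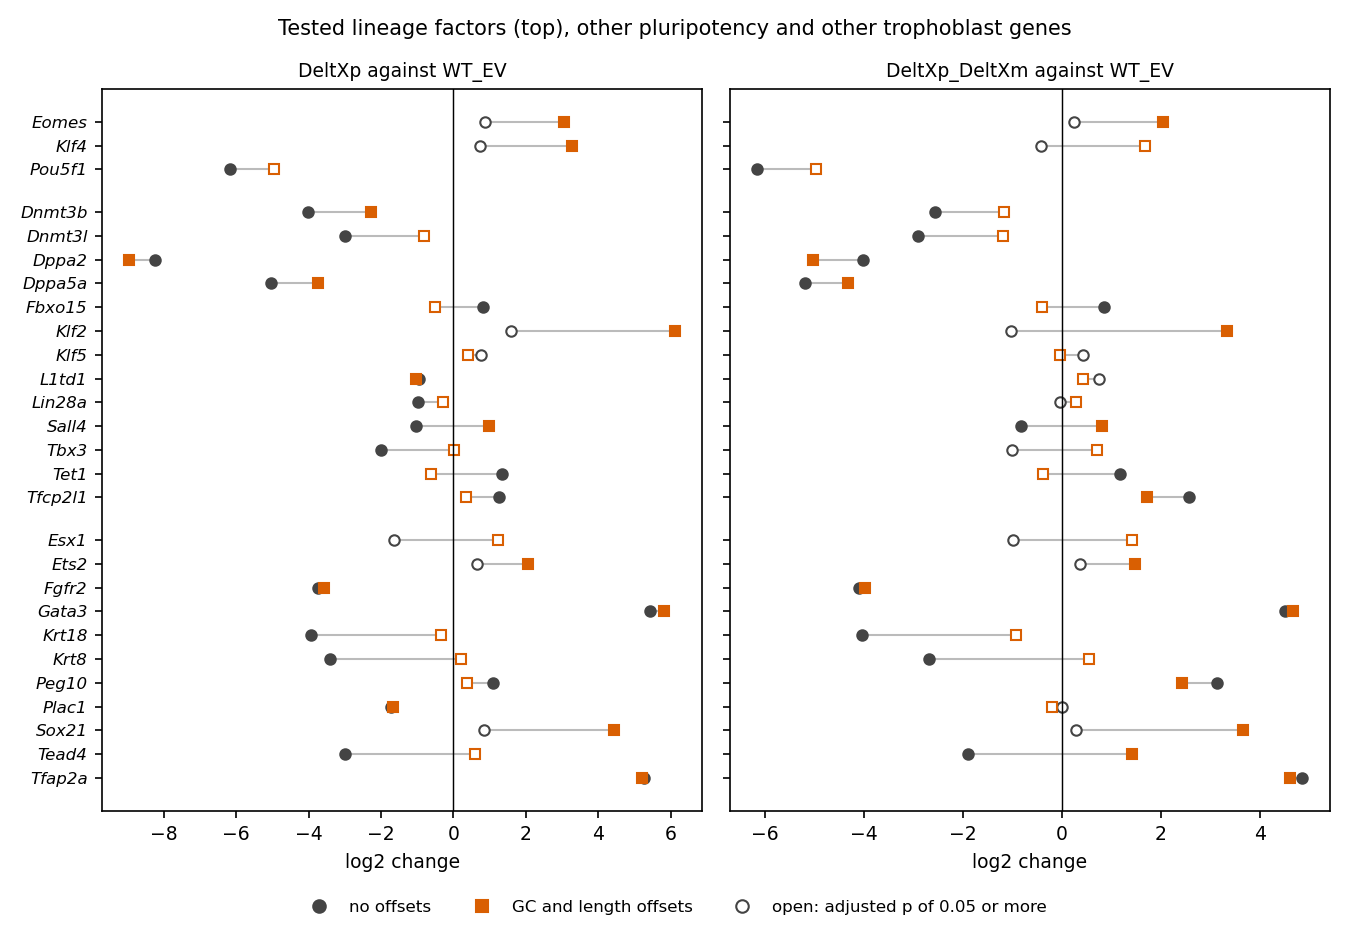
Log2 change against WT_EV (horizontal axis) in DeltXp and DeltXp_DeltXm for the 3 tested lineage factors, 13 other pluripotency and 11 other trophoblast genes, without offsets (circles) and with GC and length offsets (squares), filled where the adjusted p was under 0.05. Krt8 moves from -3.42 to 0.20 and Tead4 from -2.99 to 0.60 in DeltXp, and the fitted values of Pou5f1 and of Dppa2 in DeltXp, which face groups at 0 counts, are no bounds. Pou5f1, Dppa2, Dppa5a and Dnmt3l passed the filter only through WT_EV, and Gata3 and Tfap2a only through deletion libraries.

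Most markers of other cell types were also under 1 CPM, with exceptions far above the scarce lineage factors. In the fibroblast list 10 of 12 genes stayed under 1 CPM in every library, with Fbn1, an extracellular matrix gene, at 31.3 to 152 CPM. In the germ layer list 8 of 10 stayed under 1 CPM, and T, Mesp1 and Gsc had no count. The other two were Nes, an intermediate filament gene of neural progenitors, at 9.36 to 68.1 CPM, and Foxc1, a forkhead factor of mesoderm, at 1.18 to 14.9 CPM. In the germ cell list 6 of 8 stayed under 1 CPM, while Kit, a receptor that germ cells share with other lineages, lay between 167 and 766 CPM.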

How the data were processed

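RNA-seq of total RNA was deposited as raw read counts per gene. Per the submitters' processing notes the authors used FastQC, STAR 2.7.9a, the GRCm38 (mm10) build and featureCounts 2.0.1; the strand setting, the treatment of multi-mapping reads, the annotation release and which of the 2 named kits (NEBNext Ultra or Tru-seq) made which library were left unstated in the labels and notes. The 7-library table lists 55401 genes, and the WT_clone table was used for the 11512 genes held, which both tables share.

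Biotypes and GC content came from GENCODE M21, symbols from a list of gene names, and gene length was deposited with the counts. Symbols and GC content were found for 55141 of the genes. The edgeR 4.0.16 quasi-likelihood test (robust, R 4.3.3) was run after filterByExpr and TMM scaling on 1 factor, the group, and p-values were adjusted by Benjamini-Hochberg. Intervals use the SE and 4 residual degrees of freedom and can be wider than the p implies. In simulated data for DeltXp against WT_EV over 15331 genes, the test called 8.96%, 91% and 100% of genes changed by 1, 2 and 3 on the log2 scale. Few genes were changed in the simulation, all with a mean above 1 CPM, and every gene had the same spread. The shares therefore do not carry over to Pou5f1 and Eomes, whose means were lower, or to comparisons in which most genes were called. Alternatives were DESeq2 1.42.0 and its size factors, no filter, GC and length offsets (loess), coding genes without histones, 2 groups alone, the replicate block and leave-one-out.

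Replicate numbers are those after "rep" in the titles; both DeltXp titles carry a second, opposite number. The rule named the 10 factors and, per other list, the 5 genes with the highest mean CPM and the 3 with the lowest p in each of the first 2 comparisons. Col4a2, Amn, Afp, Thbd, Ttr, Dppa2, Dppa5a, Dnmt3l, Gata2, Gata3, Tfap2a, Ascl2, Gcm1, Fgf4, Tdgf1, Prdm14, Gata6, Sox17 and Sox21 fall outside it and were chosen after their values were seen. The members and lists were chosen with earlier results of these data known.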

Additional observations from a re-analysis of the deposited data

How the results depend on the processing

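The number of factors called in DeltXp against WT_EV was 1, and it was 2 with GC and length offsets, 2 with the replicate block (Klf4 gained, 1.77, adjusted p = 4.74e-04, edgeR) and 0 to 2 when 1 library was left out. In DeltXp_DeltXm against WT_EV it was 1, 2 without the filter and 0 to 1 with 1 library left out. Between the deletions it was 0, and 0 to 0 with 1 library left out. The Klf4 change in DeltXp_DeltXm against WT_EV turned from -0.43 to 1.67 with offsets, 0.62 with the replicate block and 0.61 without WT_EV replicate 3 (-0.79 to 0.61 with 1 library left out). That of Eomes turned from 0.24 to -0.11 with the block and -0.09 without WT_EV replicate 3 (-0.09 to 0.58). Over these alternatives the adjusted p ran from 8.21e-05 to 0.70 for Klf4 and from 0.00192 to 0.210 for Pou5f1 in DeltXp (edgeR or DESeq2). Over all genes the replicate block called 10638 in DeltXp and 9668 in DeltXp_DeltXm against WT_EV. Causes were not tested.

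Calls among the 26 other pluripotency genes went from 11 to 6 (offsets; 7 to 11 with 1 library left out, lowest without DeltXp replicate 2) in DeltXp and from 8 to 5 (offsets; 5 to 10, lowest without WT_EV replicate 2) in DeltXp_DeltXm. Between the deletions they went from 0 to 2 (DESeq2) and 6 (no filter; 0 to 1 with 1 library left out). Trophoblast calls were 8 (6 to 10) and 7 (6 to 8) against WT_EV, and between the deletions went from 0 to 1 (DESeq2), 2 (no filter) and 1 (block; 0 to 1). Over all genes, calls against WT_EV also went down with offsets, from 11079 to 7569 in DeltXp and from 10243 to 6293 in DeltXp_DeltXm. Between the deletions 68 became 1181 (DESeq2), 1436 (no filter), 32 (offsets), 10 (2 groups alone) and 2 to 480 with 1 library left out; 43 were higher and 25 lower, and with DESeq2 size factors 33 and 36. Against WT_clone, offsets took 1329 to 476 (DeltXp) and 824 to 198 (DeltXp_DeltXm), and leaving out 1 library gave 692 to 1344 (lowest without DeltXp replicate 1) and 415 to 949 (lowest without DeltXp_DeltXm replicate 2, 495 without replicate 1). In WT_clone against WT_EV 1011 became 552 to 1057, with 557 and 552 without WT_EV replicates 1 and 2. DESeq2 size factors moved the all-gene median in DeltXp from -0.35 to -0.20.

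Deviations of same-numbered libraries correlated at 0.0818 (WT_EV with DeltXp_DeltXm), -0.0657 (WT_EV with DeltXp) and -0.201 (the deletions), so the samples share only a number. A replicate block with the DeltXp numbers crossed, added after seeing the data, called 2, 2 and 1 factors, and 3 pluripotency and 2 trophoblast genes between the deletions. Over all genes it called 11253 in DeltXp and 10447 in DeltXp_DeltXm against WT_EV, and 1573 between the deletions. Klf4 and Eomes in DeltXp_DeltXm were then 0.63 and -0.03. Counts of 12 or fewer limit 8 of the 10 factors to a description at this depth.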

Other observations

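A few other genes of the marker lists differed between groups at very low levels, and they were chosen after their values were seen. Of all tested genes, 81.6% did not overlap between DeltXp and WT_EV, and 77.5% did not between DeltXp_DeltXm and WT_EV. Gata3, a trophectoderm GATA factor, had 1, 0 and 1 counts in WT_EV replicates 1, 2 and 3, 9 and 78 in DeltXp and 10 and 36 in DeltXp_DeltXm replicates 1 and 2. None of these 7 libraries exceeded 2.66 CPM. WT_clone replicates 1 and 2 had 42 and 317 counts, the latter 54.4 CPM over the shared genes, against 0 to 0.435 CPM in WT_EV. As the gene was chosen for this pattern, no test value is given, though its calls are counted in the trophoblast list above. Tfap2a, an AP-2 factor related to Tfap2c, had 0, 1 and 0 counts in WT_EV, 11 and 30 in DeltXp and 23 and 9 in DeltXp_DeltXm.

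Dppa2, a chromatin factor of pluripotent cells, had 9, 15 and 68 counts in WT_EV replicates 1, 2 and 3, none in DeltXp and 4 and 1 in DeltXp_DeltXm. It was at least 33.4-fold lower in DeltXp (floor of 3 counts over the group). Dppa5a, an RNA-binding protein of pluripotent cells, had 34, 67 and 4 counts in WT_EV against 0 to 2 in the deletions. The WT_EV library with the most Dppa2 and Klf4, replicate 3, thus had the fewest Dppa5a and Pou5f1 counts. Dazl, a germ cell RNA-binding protein, had no count in WT_EV and 5 to 19 in each deletion library, at least 7.34-fold higher in DeltXp and at least 7.17-fold in DeltXp_DeltXm.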
